A study of Mus musculus with 1528 samples.

Results

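The transcripts of 5 chemokine receptor genes of macrophages were followed in single cells: *Ccr1*, *Ccr2*, *Cx3cr1*, *Cxcr4* and *Ccrl2*. They were taken by name and are 5 of the 55421 genes of the count table, and each matched 1 Ensembl identifier. The cells were macrophages grown from the bone marrow of 2 wild-type male C57BL/6 mice (C57BL/6J in the methods of the study) in M-CSF (BMDMs). Stimulation lasted 24 h with 10 ng/ml of each cytokine, in the group IL4+IL13 and in the group IL4+IL13+TNF. All cells thus received IL4 and IL13, and the groups are called without TNF and with TNF. Live cells were sorted singly into 4 plates for Smart-seq2, a full-length cDNA method without molecular identifiers, in which PCR copies of 1 molecule are all counted. Plates 2 and 3 held cells of mouse 1 and plates 4 and 5 those of mouse 2. Differences between the mice thus cannot be told apart from differences between their plates. Each plate carried the treatments in separate rows, so that treatment and plate position cannot be told apart.

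Chemokine receptors are G protein–coupled receptors that steer leukocytes along gradients of secreted chemokines. CCR1 and CCR2 bind inflammatory CC chemokines, and CCR2 brings monocytes out of the marrow and into inflamed tissue. CX3CR1 binds CX3CL1 and marks patrolling monocytes and many resident macrophages. CXCR4 binds CXCL12 and holds cells in the bone marrow. CCRL2 is atypical: it binds chemerin and presents it to other receptors without classical signalling.

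After quality filtering, 1386 of 1524 wells remained, in mouse 1 357 without and 347 with TNF, in mouse 2 333 and 349. Kept wells held 200235 to 6122892 fragments, with medians of 447264 to 490310 per group. Of 8 macrophage markers, all were tested, with *Adgre1* at 686 to 896 CPM (counts scaled to equal library size) and *Csf1r* at 830 to 1348 CPM in the 4 sums. The edgeR fit without a block called 0 of the 8. With the mouse as a block 1 of the 8 rose, *Lyz2*, beside 1.94% of all genes. *Fcgr1* and *Mertk* fell, beside 1.88% of all genes, and DESeq2 did not call *Mertk*. *Fcgr1* went from 68.4 and 66.4 to 19.998 and 20.561 CPM and *Mertk* from 13.8 and 32.4 to 6.41 and 13.5 CPM. The 6 monocyte markers together came to 1.30 to 8.82 CPM, the 7 lymphocyte markers to 0.218 to 0.263 CPM, and *Ncr1* was at 0. The 9 dendritic cell markers summed to 9.74 and 14.2 CPM without TNF and to 32.5 and 219 CPM with TNF, of which *Ccr7* made 21.3 and 194 CPM. The 10 neutrophil markers summed to 14.2 to 88.0 CPM, of which *Csf3r*, which macrophages also express, made 12.9 to 81.6 CPM. The part of these cells in the results below was not tested.

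Levels of different genes were compared per kilobase of exon, as CPM of the summed fragments. Without TNF, *Cxcr4* stood highest with 11.8 ± 2.85 CPM per kilobase (SD, n = 2 mice), followed by *Ccr1* with 4.38 ± 1.23, *Ccrl2* with 2.41 ± 0.735, *Ccr2* with 1.85 ± 1.05 and *Cx3cr1* with 0.489 ± 0.0502. *Ccrl2* and *Ccr2* did not differ beyond their spread. With TNF the order was the same, with *Cxcr4* at 11.3 ± 2.28, *Ccr1* at 7.54 ± 3.69, *Ccrl2* at 6.36 ± 0.446, *Ccr2* at 1.29 ± 0.415 and *Cx3cr1* at 0.441 ± 0.213 CPM per kilobase. There, the mice overlapped between *Cxcr4* and *Ccr1* and between *Ccr1* and *Ccrl2*.

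The fragments of each mouse and treatment were added up and tested over 17034 genes with edgeR's quasi-likelihood test and Benjamini-Hochberg adjustment. The mouse is the replicate, which gives 2 sums per treatment. This fit and DESeq2 leave out the pairing of the sums by mouse. The fit with the mouse as a block takes it in. None of the 5 receptors passed an adjusted p of 0.05 in this fit, where 0.00587% of all genes did, and 1 receptor, *Ccrl2*, had an unadjusted p under 0.05, as had 8.1% of all genes. With the mouse as a block, 1 of 5 receptors was called higher with TNF, against 1.94% of all genes. DESeq2 also called 1 of 5 higher, against 1.79%. In both of these fits the receptor was *Ccrl2*.

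*Ccrl2* had the largest log2 fold change of the 5 receptors. Its level was 7.60 CPM in mouse 1 and 4.91 CPM in mouse 2 without TNF, and 17.4 and 15.7 CPM with TNF. The groups did not overlap, and both mice went up. The log2 fold change was 1.40 ± 0.31 (SE) with an edgeR adjusted p of 0.34. With the mouse as a block it was 1.43 ± 0.22 with an edgeR adjusted p of 0.0372, and DESeq2 gave 1.39 ± 0.34 with an adjusted p of 0.00235. The adjusted p over all alternatives ranged from 0.00235 to 0.767, and leaving out any of the 4 sums left a log2 fold change of 1.12 to 1.75.

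*Ccrl2* was higher with TNF on every plate. It went from 9.28 to 13.8 CPM on plate 2, from 5.94 to 20.1 on plate 3, from 3.91 to 16.99 on plate 4 and from 6.08 to 14.4 on plate 5. Over all genes, 18.7% were higher on 4 of 4 plates, and 2 of the 5 receptors were, *Ccrl2* and *Ccr1*. Both mice with TNF stood above both mice without for 18.6% of all genes and for 1 of the 5 receptors, *Ccrl2*. Both stood below for 17.9% of all genes and for 0 of the 5.

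*Ccr1*, the receptor of CCL3, CCL5 and the CCL6 and CCL9 of mice, was also higher with TNF in each mouse, by less. Its level was 14.9 and 9.93 CPM in mouse 1 and mouse 2 without TNF, and 28.8 and 13.99 CPM with TNF. The groups overlapped, since mouse 2 with TNF stood below mouse 1 without. The log2 fold change was 0.78 ± 0.43 with an edgeR adjusted p of 0.76, and the fit with a mouse block did not call it either (edgeR adjusted p = 0.118). Without the TNF sum of mouse 1 it was 0.17. By plate, *Ccr1* went from 19.8 to 31.2, from 10.003 to 26.7, from 12.6 to 15.8 and from 7.08 to 12.2 CPM on plates 2 to 5.

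The summed level of *Ccr2*, the main receptor of CCL2, went in opposite directions in the 2 mice. It stood at 7.47 CPM without TNF and at 10.7 CPM with TNF in mouse 1, and at 17.5 and 6.75 CPM in mouse 2. Both plates of each mouse went the way of that mouse, with log2 changes of 0.54 and 0.54 on plates 2 and 3 and of -1.14 and -1.51 on plates 4 and 5 (0.5 added to each CPM). The log2 fold change over both mice was -0.52 ± 0.49 with an edgeR adjusted p of 0.895, and it turned to 0.23 without the IL4+IL13 sum of mouse 2.

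*Cxcr4*, the CXCL12 receptor, differed by less than the spread between mice. It stood at 17.8 and 25.03 CPM without TNF and at 17.5 and 23.3 CPM with TNF in mouse 1 and mouse 2, with mouse 2 the higher in both treatments. The log2 fold change was -0.07 ± 0.28 with an edgeR adjusted p of 0.986. *Cx3cr1* was the least abundant, at 2.04 and 2.36 CPM without TNF and 1.31 and 2.67 CPM with TNF. Its log2 fold change was -0.15 ± 0.47 with an edgeR adjusted p of 0.982. The signs of these small values turned when single sums were left out.

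**Figure D1:**
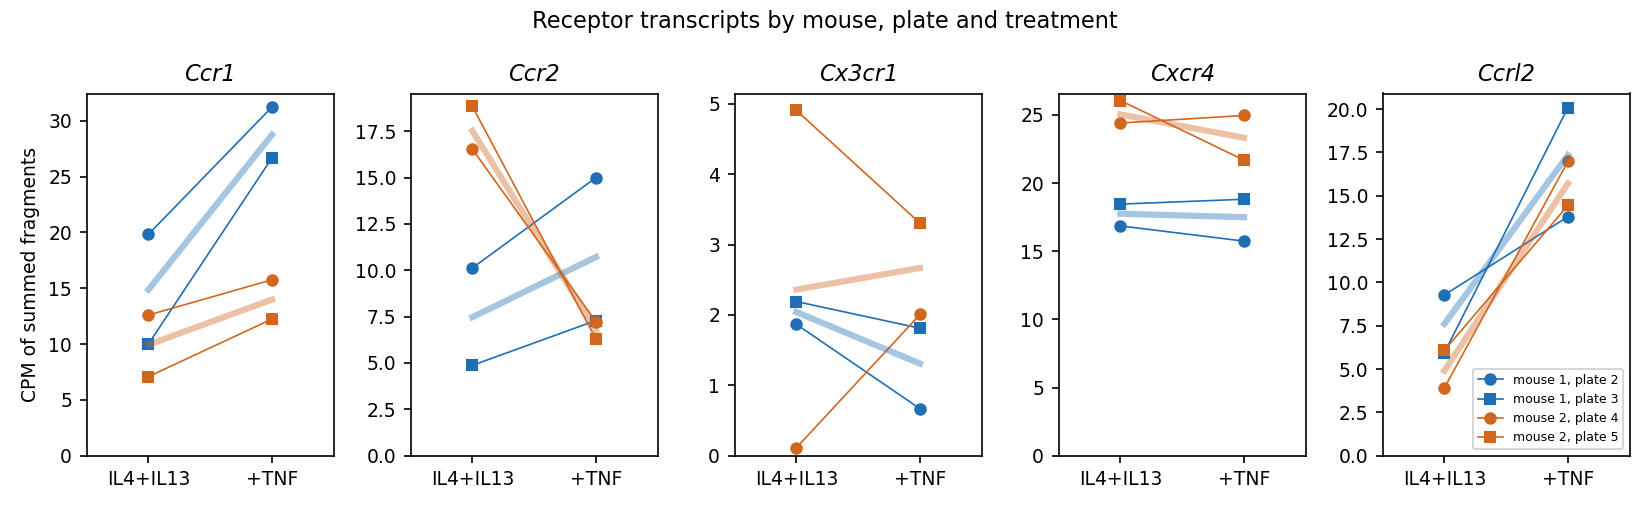
CPM of summed fragments (vertical axis, from 0, a scale for each gene) of the 5 receptors without and with TNF; points are plates, thin lines join the treatments of a plate, thick pale lines join the sums of a mouse, blue is mouse 1 and orange mouse 2. *Ccrl2* and *Ccr1* go up on 4 of 4 plates, as 18.7% of all genes do, and the *Ccr2* lines of the mice cross.

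The genes lie on chromosome 9 except *Cxcr4*. In mm10 coordinates of the count table, *Ccr1* spans chr9:123962124-123968692 on the minus strand, *Ccr2* chr9:124101950-124113557 on the plus strand, *Cx3cr1* chr9:119901616-120069879 and *Ccrl2* chr9:111054486-111057519 on the minus strand, and *Cxcr4* chr1:128588199-128592293 on the minus strand. Fragments were counted without regard to strand. No exon bases of *Ccr1*, *Ccr2*, *Cxcr4* or *Ccrl2* are shared with another gene, and 78 of the 4505 exon bases of *Cx3cr1* are shared with *Gm33858* on the other strand. Only uniquely mapped fragments were counted, so values are uncertain where the sequence of a receptor matches that of another gene.

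The promoter windows of *Ccrl2* and *Ccr1* are shown because these 2 receptors were higher with TNF on all plates. Both are RefSeq windows of GRCm38.p6 on the minus strand, from 250 bases before to 50 bases after the start, chr9:111057469-111057768 and chr9:123968643-123968942. Of several *Ccrl2* starts the outermost is shown. Capitals mark the 50 transcribed bases.
*Ccrl2*: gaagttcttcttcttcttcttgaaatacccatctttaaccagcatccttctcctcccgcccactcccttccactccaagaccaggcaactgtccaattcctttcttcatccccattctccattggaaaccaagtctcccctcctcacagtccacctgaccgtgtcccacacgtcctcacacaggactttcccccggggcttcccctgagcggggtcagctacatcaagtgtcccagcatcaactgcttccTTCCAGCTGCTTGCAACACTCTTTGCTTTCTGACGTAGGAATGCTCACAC
*Ccr1*: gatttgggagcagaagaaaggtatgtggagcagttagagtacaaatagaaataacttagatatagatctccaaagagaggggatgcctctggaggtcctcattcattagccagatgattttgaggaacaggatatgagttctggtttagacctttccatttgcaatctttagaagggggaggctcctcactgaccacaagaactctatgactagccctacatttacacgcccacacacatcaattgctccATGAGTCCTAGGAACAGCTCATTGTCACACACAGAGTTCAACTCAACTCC
The AP-1 letters TGANTCA were searched on both strands. Of 32851 promoters, 7.81% held them. No window of the 5 receptors did, which says only that these letters are not in these windows.

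Shares of cells were taken after thinning each cell to 339000 fragments, which left 332 and 303 cells of mouse 1 and 309 and 306 of mouse 2, without and with TNF. Ranges in parentheses are 95% intervals (exact, Clopper-Pearson), which cover only the counting error. With 2 mice per treatment an exact permutation test cannot go below p = 0.333, so shares are a description.

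*Ccrl2* was found in more cells with TNF in both mice. At least 1 fragment was found in 14.8% of cells (11.1 to 19.04%) in mouse 1 and 21.7% (17.2 to 26.7%) in mouse 2 without TNF, and in 29.7% (24.6 to 35.2%) and 30.4% (25.3 to 35.9%) with TNF. The difference was 11.8 ± 4.41 percentage points (SD, n = 2 mice; exact two-sided permutation p = 0.333). Without thinning the shares were 14.6%, 26.4%, 29.7% and 34.7%, in the same order. Counting only cells with 5 or more fragments, they were 9.94% and 4.21% without TNF and 21.8% and 14.7% with TNF, a difference of 11.2 ± 0.95 percentage points. Cells with any *Ccrl2* fragment held 18.9 and 8.72 fragments on average without TNF and 20.7 and 17.9 with TNF.

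The share of cells with *Ccr1* was 20.5% and 22.7% without TNF and 29.0% and 27.5% with TNF, a difference of 6.68 ± 2.66 percentage points (exact two-sided permutation p = 0.333, n = 2). Unthinned shares were 22.97%, 28.2%, 28.8% and 33.5%. The share with 5 or more fragments was 12.05% and 7.12% without TNF and 20.8% and 11.1% with TNF. Here mouse 2 with TNF stood below mouse 1 without, as in the summed levels.

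*Ccr2* split the mice, which were on separate plates, more than the treatments. Of cells without TNF, 9.94% (6.94 to 13.7%) of mouse 1 and 44.98% (39.3 to 50.7%) of mouse 2 had a fragment, and with TNF 7.92% (5.14 to 11.6%) and 32.7% (27.5 to 38.2%). Unthinned shares were 11.8%, 51.7%, 8.93% and 40.1%. Nearly all of this gap lay in cells with few fragments. Cells with 1 to 4 *Ccr2* fragments made 4.52% and 3.96% of mouse 1 but 36.9% and 29.7% of mouse 2.

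Over 5798 tested genes with a mean CPM within the range of the receptors, the median share of cells with 1 to 4 fragments was 9.94% without and 9.57% with TNF in mouse 1, and 10.03% and 10.1% in mouse 2. The shares of *Ccr1*, *Ccr2* and *Ccrl2* in this class differed between the mice. A median over genes does not show how far single genes differ between mice. How these receptors compare with other genes in this was not tested. For *Ccr1*, mouse 1 had 8.43% without and 8.25% with TNF, and mouse 2 had 15.5% and 16.3%. For *Ccrl2*, mouse 1 had 4.82% and 7.92%, and mouse 2 had 17.5% and 15.7%. *Ccr7*, at 0.110 and 0.432 CPM without TNF, had no cell with 5 or more fragments there, and yet 1 to 4 fragments in 14 cells of mouse 1 and 37 cells of mouse 2. Shares that rest on 1 to 4 fragments were therefore read beside those at 5 or more. The cause of the low numbers was not tested.

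At 5 or more fragments, *Ccr2* was a gene of few cells and was less frequent with TNF in both mice. These cells were 5.42% of mouse 1 and 8.09% of mouse 2 without TNF, and 3.96% and 2.94% with TNF, a difference of -3.31 ± 2.61 percentage points (exact two-sided permutation p = 0.333, n = 2). Without against with TNF, plates 2 to 5 had 5.42% against 4.69%, 5.42% against 3.43%, 8.64% against 2.76% and 7.48% against 3.11%. These were 9 against 6, 9 against 6, 14 against 4 and 11 against 5 cells. The share of all genes that are lower in both mice or on every plate by this measure was not computed. In mouse 1 the summed level went the other way, and 24 *Ccr2* cells with TNF held 51.96 fragments on average and 33 cells without TNF held 28.9. The top 5% of cells carried 97.9% and 99.4% of the *Ccr2* CPM of mouse 1 and 84.9% and 86.2% of that of mouse 2. The mouse 1 values thus rest on 12 cells with 5 or more fragments with TNF and 18 without.

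*Cxcr4* was spread over most cells, and the share with a fragment was 66.3% and 83.2% without TNF and 62.7% and 72.5% with TNF. Unthinned shares were 71.7%, 85.3%, 67.4% and 77.1%. The top 5% of cells carried 31.3 to 34.6% of its CPM. *Cx3cr1* was found in 6.63% and 3.88% of cells without TNF and 3.30% and 4.58% with TNF, and unthinned in 7.84%, 5.11%, 4.32% and 7.16%. Without TNF, where *Ccr7* had no cell with 5 or more fragments, 4.22% of mouse 1 and 11.97% of mouse 2 still had a *Ccr7* fragment. Shares of this size from any fragment were therefore read with caution, beside those at 5 or more. Their cause was not tested. Cells with 5 or more *Cx3cr1* fragments numbered 9 and 2 without TNF and 6 and 7 with TNF.

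**Figure D2:**
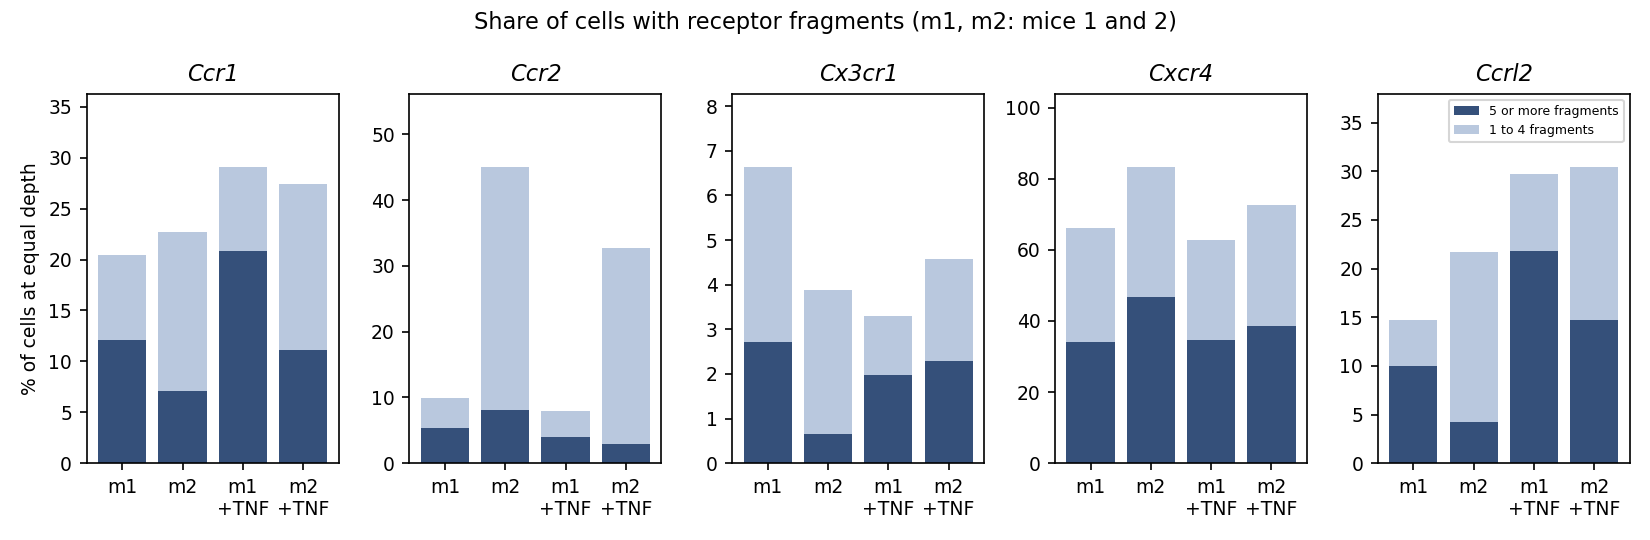
Share of cells at equal depth (percent, vertical axis from 0, a scale for each gene) with 1 to 4 fragments (pale) or 5 or more (dark) of each receptor, for mice 1 and 2 (m1, m2) without and with added TNF. The dark part of *Ccrl2* is higher with TNF in both mice, and the *Ccr2* bars of mouse 2 are mostly pale.

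Most cells carried few kinds of receptor. Any fragment was counted here, which includes cells with 1 to 4 fragments. For *Ccr1*, *Ccr2* and *Ccrl2* these were more frequent in mouse 2 in both treatments. The kinds at 5 or more fragments were not counted. On average a cell had fragments of 1.18 of the 5 receptors in mouse 1 and 1.76 in mouse 2 without TNF, and of 1.33 and 1.68 with TNF. Cells with none were 21.99% and 5.50% without TNF and 18.8% and 9.15% with TNF. Cells with 4 kinds made 0.33 to 5.23% of each group, and 1 cell, of mouse 1 without TNF, carried all 5.

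Rank correlations between the receptors over cells of a mouse and treatment were weak. The mean Spearman correlation over the 4 groups ran from -0.04 for *Ccr2* with *Cxcr4* to 0.11 for *Ccr2* with *Cx3cr1*, and *Ccr1* with *Ccr2* had 0.10. The pair *Ccr2* and *Cx3cr1* was positive in 8 of 8 combinations of plate and treatment, at 0.03 to 0.21. Cells of a plate share processing and depth, counts were sparse, and correlations of this size are given as a description.

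**Figure D3:**
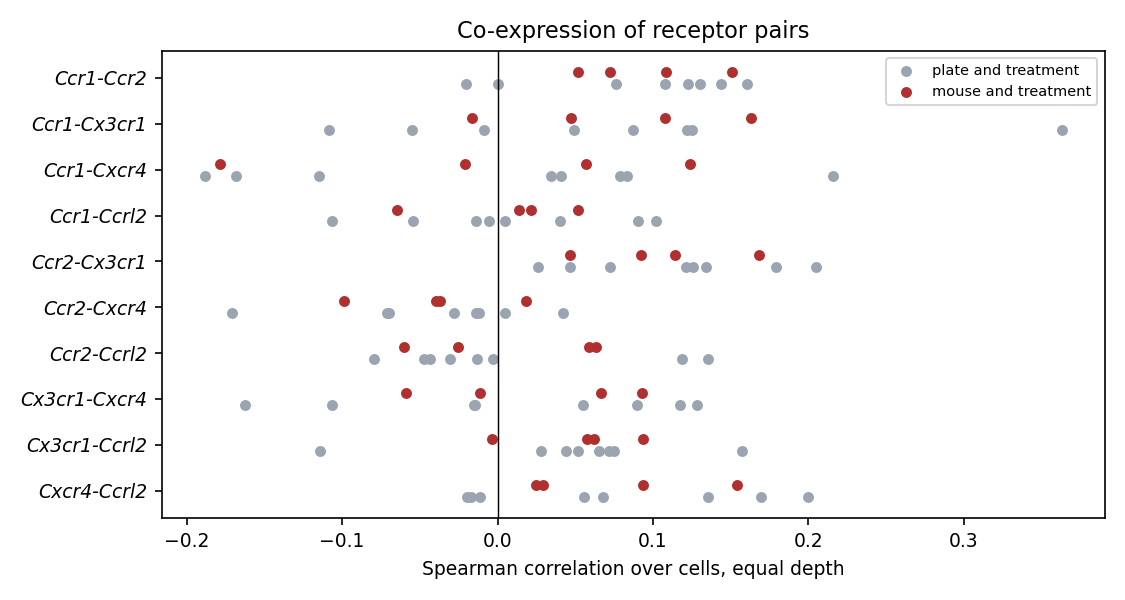
Spearman correlation over cells at equal depth (horizontal axis) for the 10 receptor pairs; red points are the 4 groups of mouse and treatment, grey points the 8 groups of plate and treatment. Most pairs lie on both sides of 0, and *Ccr2* with *Cx3cr1* lies above 0 throughout.

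Cells with both *Ccr1* and *Ccr2* numbered 89, where 72.7 were expected from the separate shares. At 5 or more fragments of each, a measure chosen after the fragment numbers were seen and computed for all 10 pairs, 23 cells had both against 7.44 expected. These were 5 and 8 cells without TNF (2.17 and 1.78 expected) and 5 and 5 cells with TNF (2.50 and 1.00 expected), in mouse 1 and mouse 2. *Ccr2* and *Cx3cr1* met in 22 cells against 12.95 expected, and at 5 or more fragments in 10 cells against 1.09. *Ccr1* and *Ccrl2*, of which only *Ccrl2* was called in any fit, met at 5 or more fragments in 16 cells against 23.6 expected. *Cxcr4* and *Ccrl2* met there in 64 cells against 57.5.

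Genes of MHC class II antigen presentation were higher in *Ccr2* cells. Cells with and without each receptor were compared for 6 gene lists after the correlations between cells had been seen, so the values are a description. The 7 genes of that list (*H2-Aa*, *H2-Ab1*, *H2-Eb1*, *Cd74*, *H2-DMa*, *H2-DMb1* and *Ciita*) had a median summed level of 6466 and 5283 CPM in cells with 5 or more *Ccr2* fragments without TNF, against 124 and 347 CPM in cells with no *Ccr2*. With TNF these medians were 4522 and 15186 CPM against 705 and 870 CPM. The *Ccr2* cells number 18 and 25 without TNF and 12 and 9 with TNF. Cells with *Cx3cr1* stood higher in the same way, at 4168, 6254, 3217 and 7903 CPM against 125, 354, 746 and 910 CPM, but they number only 9, 2, 6 and 7. For *Ccr1* the medians were 236 and 1100 CPM against 127 and 319 CPM without TNF, and 1419 and 7839 CPM against 560 and 817 CPM with TNF. *Cxcr4* and *Ccrl2* had no common direction over the 4 groups. The median of the 6 monocyte markers in cells with 5 or more *Ccr2* fragments was 0 to 2.95 CPM. Cycling genes were higher in these cells in 3 of the 4 groups, with medians of 1714, 1530 and 670 CPM against 434, 189 and 184 CPM, and lower in mouse 2 with TNF, at 79.6 against 142 CPM. The C1q macrophage genes were lower in 3 of the 4, with medians of 1870, 2230 and 230 CPM against 4047, 4264 and 3050 CPM, and stood at 2618 against 2445 CPM in mouse 1 with TNF. Dendritic cell markers were also higher in 3 of the 4, with medians of 8.85, 7.37 and 11.8 CPM against 5.90 CPM in each. They were lower in mouse 2 with TNF, at 5.90 against 8.85 CPM. Such medians rest on few fragments per cell. In the sums without TNF, *Flt3* made 7.19 and 6.66 CPM of the 9.74 and 14.2 CPM of this list. It was found in 94.2% of cells without and 92.1% with TNF, so these medians do not mark a cell type. Macrophage markers had no common direction over the 4 groups.

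**Figure D4:**
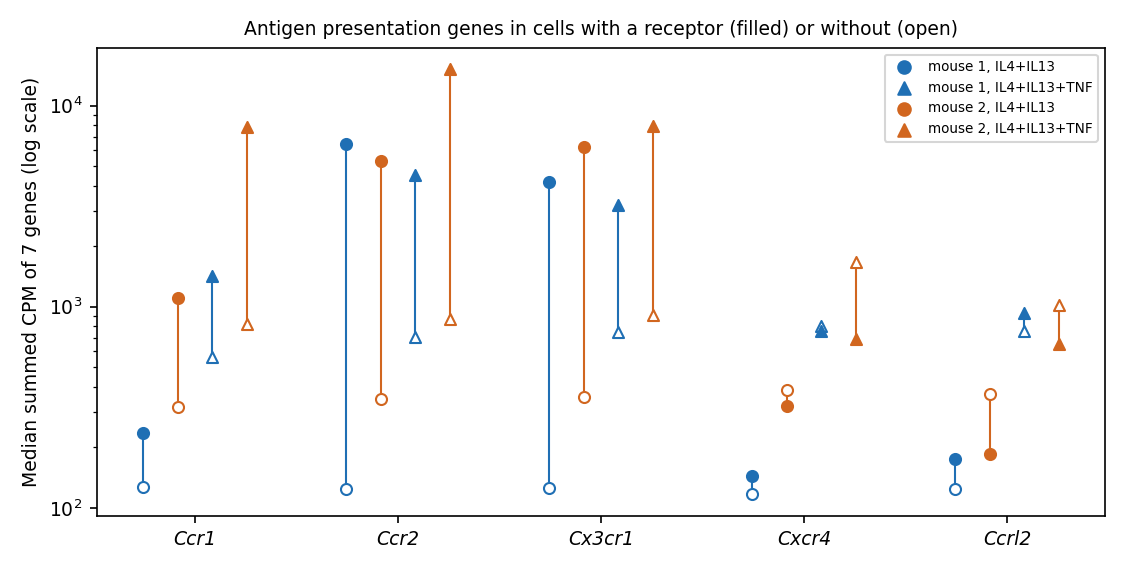
Median summed CPM of 7 antigen presentation genes (vertical axis, log scale) in cells with 5 or more fragments of a receptor (filled) and with none (open), joined by a line, for each mouse (blue 1, orange 2) and treatment (circles IL4+IL13, triangles IL4+IL13+TNF). Filled points stand above open ones in 4 of 4 groups for *Ccr1*, *Ccr2* and *Cx3cr1*.

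The genes most like each receptor over cells were ranked by mean Spearman correlation over the 4 groups, among 9011 genes found in at least 25% of cells of every group. For *Ccr2* they were *H2-Aa* at 0.22, *H2-Eb1* at 0.20 and *H2-Ab1* at 0.19, all MHC class II genes. For *Ccr1* they were *Mmp12*, a macrophage elastase, at 0.23, *Cd24a* at 0.21 and *H2-Ab1* at 0.20. For *Cx3cr1* they were *Spn*, *Plaur* and *Cytip* at 0.16, 0.12 and 0.12, and for *Cxcr4* *Atp6v1a*, *Cebpb* and *Osbpl8* at 0.18, 0.16 and 0.16. *Ccrl2* had *Slc29a1*, *Tiprl* and *Trak2*, all at 0.11, and its median over all genes was 0.00. With list scores (the mean of log2(fragments + 1) over the genes), *Ccr1* and *Ccr2* correlated with antigen presentation at 0.21 and 0.17, and with the C1q macrophage genes at -0.14 and -0.06. The correlation with the *Gpnmb* macrophage genes was -0.02 for *Ccr1* and -0.10 for *Ccr2*. For *Ccrl2* it was 0.07, and 0.08 with 10 NF-kB targets.

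The ligands of these receptors were read in the same cells. Of 10 ligand genes 7 were tested, and edgeR called 0 of them, with 5 at an unadjusted p under 0.05, beside 8.1% of all genes. With the mouse as a block 4 rose and 1 fell, beside 1.94% and 1.88% of all genes, and DESeq2 called 3 higher and 0 lower, beside 1.79% and 1.72%. The median log2 fold change of the 7 was 0.62, beside 0.00 over all genes tested.

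Among the ligands of CCR1, *Ccl5* stood at 2.74 and 1.56 CPM without TNF and at 34.9 and 60.3 CPM with TNF, with a log2 fold change of 4.47 ± 0.46 and an edgeR adjusted p of 0.135 (0.0137 with the mouse as a block). *Ccl6* stood at 461 and 785 CPM without TNF and at 1211.5 and 1353 CPM with TNF (0.0307 with the block). *Ccl9*, the most abundant ligand, went from 3754 and 3312 to 5923 and 4910 CPM (0.0145 with the block). *Ccl3* went the other way, from 226 and 122 to 107 and 65.6 CPM (edgeR adjusted p = 0.0187 with the block). In both mice *Ccl5*, *Ccl6* and *Ccl9* with TNF stood above both mice without, as 18.6% of all genes did, and *Ccl3* stood below, as 17.9% did.

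Among the ligands of CCR2, *Ccl12* stood at 44.6 and 25.9 CPM without TNF and at 132 and 147 CPM with TNF, with an edgeR adjusted p of 0.21, and 0.0203 with the mouse as a block. *Ccl2* and *Ccl7* followed the mouse more than the treatment. *Ccl2* was at 683 and 541 CPM in mouse 1 and at 131 and 161 CPM in mouse 2, and *Ccl7* at 807 and 462 CPM in mouse 1 and at 132 and 190 CPM in mouse 2, without and with TNF. *Cx3cl1*, *Cxcl12* and the chemerin gene *Rarres2* were under 1 CPM in each sum and were not tested.

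**Figure D5:**
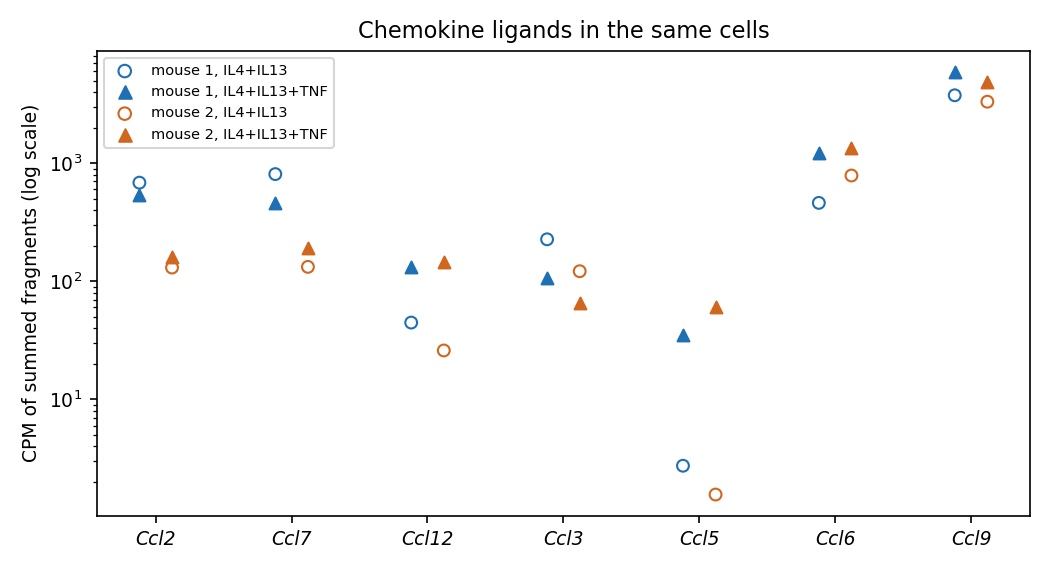
CPM of summed fragments (vertical axis, log scale) of the 7 tested ligand genes; open circles are IL4+IL13 and filled triangles IL4+IL13+TNF, blue is mouse 1 and orange mouse 2. For *Ccl12*, *Ccl5*, *Ccl6* and *Ccl9* both triangles stand above both circles, and for *Ccl3* below.

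Of 26 other chemoattractant receptors 6 were tested, and 18 were under 1 CPM in each sum. edgeR called 0 of the 6, with 4 at an unadjusted p under 0.05 (8.1% of all genes). With the mouse as a block *Ccr7* rose and *C3ar1* fell, as in DESeq2, beside 1.94% of all genes higher and 1.88% lower with the block. *Ccr7*, the receptor that guides cells to lymph nodes, stood at 0.110 and 0.432 CPM without TNF and at 21.3 and 194 CPM with TNF (edgeR adjusted p = 0.00555 with the block), and 2 and 11 cells with TNF held 5 or more of its fragments. *C3ar1*, the receptor of the complement fragment C3a, went from 1124 and 1215 CPM to 639 and 648 CPM (0.0135 with the block). *C5ar1*, the C5a receptor, stood at 624 and 246 CPM and at 557 and 216 CPM.

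All 22 genes that carry or end receptor signals were tested, with 0 called by edgeR and 5 at an unadjusted p under 0.05, beside 8.1% of all genes. With the mouse as a block 2 rose and 0 fell (1.94% and 1.88% of all genes), and DESeq2 called 1 higher and 1 lower (1.79% and 1.72%). *Rgs1*, which ends G protein signals, went from 281 and 186 to 798 and 370 CPM (edgeR adjusted p = 0.0193 with the block). *Pik3r5*, a subunit of the PI3 kinase below G proteins, went from 139 and 162 to 220 and 240 CPM (edgeR adjusted p = 0.0431 with the block). The G protein subunits *Gnai2* and *Gnb1* and the GTPase *Rac2* had log2 fold changes of -0.25, -0.02 and -0.08 and edgeR adjusted p-values of 0.858, 0.994 and 0.965.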

How the data were processed

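The authors deposited counts of fragments per gene and well. Per the study's methods they aligned with gsnap against mm10, helped by splice sites of Ensembl release 98, and used featureCounts (1.6.3 in the submitters' processing notes) to count fragments with a unique position. The counts are not normalized and were made without strand. Of the 92 spike-in rows none entered a total or a test. 8 columns that match no sample were not used.

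A well was dropped if its log total or log number of detected genes fell over 3 median absolute deviations short of its plate's median, or its mitochondrial or spike-in share exceeded it by as much. Sums over the wells of a mouse and treatment were fitted with edgeR 4.0.16 in R 4.3.3 (TMM, glmQLFit, glmQLFTest, Benjamini-Hochberg, threshold 0.05) on genes found in at least 5% of cells of either treatment that pass filterByExpr. CPM uses TMM, and changes per mouse add 0.5 CPM. Other fits used a replicate block for the mouse, DESeq2 1.42.0, unscaled library sizes, all genes, limma 3.58.1 on log2(CPM + 1) of mean CPM per cell, a fixed cell filter (1000 genes, 10% mitochondrial), no cell filter and each sum left out. The mouse numbers pair the samples: they mark the same mouse in both treatments. Deviations correlated over 17034 genes with r = 0.568. Each mouse had its own plates for both treatments, so this correlation cannot tell a shared mouse from shared plates. Shares, thinning and correlations used Python 3.11.15 with numpy 2.4.6 and scipy 1.17.1. The tests were tested on simulated data with known changes, where the fit with a block and DESeq2 recovered more changes and made more false calls than the fit without a block. The simulated sums held no difference between mice, which the block models. They thus cannot show how often the block makes false calls on the measured sums.

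The receptors and gene lists were chosen with earlier results of these data known. Named genes were all receptors and tested ligands. Of the other receptors and signalling genes, those past the threshold in the edgeR fit with or without the block and the 4 most abundant were named, and for each receptor the 3 genes nearest in correlation. 1 gene that this rule names is not reported here. Mast cell and basophil markers summed to 2.73 to 10.4 CPM and stromal markers to 0.543 to 2.36 CPM. With the block, which called 1.94% of all genes higher and 1.88% lower, 6 of 10 cycling genes fell, 4 of 7 antigen presentation genes and 8 of 10 NF-kB targets rose, and 0 of 8 interferon genes were called. Of 10 C1q macrophage genes 2 rose and 2 fell, and of 10 *Gpnmb* macrophage genes 1 rose and 1 fell. 4 wells with the label IL4/IL13 and no mouse were put in no group, and 3 of them have a matched column of counts.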

Additional observations from a re-analysis of the deposited data

Results flagged for a closer look

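The log2 change of *Ccr2* with TNF was 0.49 in mouse 1 and -1.31 in mouse 2. It stands out because the summed level went up on both plates of mouse 1 and down on both plates of mouse 2. The difference between the mice was not tested. The mouse 1 levels rest on few cells, since the top 5% of cells carried 97.9% of the CPM without and 99.4% with TNF. After thinning, 11 *Ccr2* cells of plate 2 with TNF averaged 74.6 fragments, and the highest held 462. On plate 3 with TNF 13 cells averaged 32.8, and the highest held 160. The change without these highest cells was not computed. Cells with 5 or more *Ccr2* fragments were fewer with TNF in both mice, but number only 9 to 25 in each group. How many of all genes are lower in this way was not computed.

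The wells that name no mouse were outside every comparison, and some held more than 3 fragments of a receptor. PCR copies are counted, so fragments are not separate molecules. The well of plate 3 held 11 *Ccr1* and 7 *Cxcr4* fragments, that of plate 4 held 14 *Ccr1* and 5 *Cxcr4* fragments, and that of plate 5 held 4 *Cxcr4* fragments.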

How the results depend on the processing

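With 2 mice per treatment the counts of called genes depended on the fit. edgeR called 1 of 17034 genes, 651 with the mouse as a replicate block and 598 in DESeq2, and 1 under each of the 5 other settings, while leaving out single sums gave 4 to 30. *Ccrl2* passed the threshold with the replicate block at a log2 fold change of 1.43 and in DESeq2 at 1.39, and the block changed no other receptor's call. Leaving out single sums gave log2 fold changes of 0.17 to 1.21 for *Ccr1*, -1.01 to 0.23 for *Ccr2*, -0.75 to 0.28 for *Cx3cr1*, -0.30 to 0.20 for *Cxcr4* and 1.12 to 1.75 for *Ccrl2*. The sign turned without the IL4+IL13 sum of mouse 2 for *Ccr2* (0.23) and *Cxcr4* (0.20), and without the TNF sum of mouse 1 for *Cx3cr1* (0.28) and *Cxcr4* (0.12), and the cause was not tested. Differences in shares of cells stayed within the spread between mice under no thinning, 5 or more fragments and both other cell filters, though at 5 or more fragments that of *Cx3cr1* turned from -1.32 to 0.45 percentage points. Leaving out a group moved that of *Ccr2* to between -24.7 and 10.4 and that of *Cxcr4* to between -15.5 and 1.36 percentage points. The ratio of observed to expected cells with both receptors, at 5 or more fragments, was added after seeing the data, and moved from 1.22 to 3.09 for *Ccr1* with *Ccr2* and from 1.70 to 9.15 for *Ccr2* with *Cx3cr1*. PCR copies are counted, so depth overstates precision, and receptors of few cells such as *Cx3cr1* are limited by cell number.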

Other observations

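Of the 4 wells that name IL4/IL13 but no mouse, the 3 with a matched column held 279461, 354874 and 87198 fragments over 10802, 11121 and 8314 genes on plates 3, 4 and 5. None held a *Ccr2* fragment. *Ccrl2* had 0, 3 and 2 fragments there, and *Cx3cr1* had 1, 0 and 0.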
